A study of Homo sapiens with 21 samples.

Results

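Microglia depend on signals through a pair of receptor systems, and the chromatin at the genes of both was described here in microglia-like cells. The set held 10 genes: CSF1R, its ligands CSF1 and IL34, the ligand TGFB1, the receptors TGFBR1 and TGFBR2, the signal transducers SMAD2 and SMAD3, and the inhibitors SMAD7 and SKI. Peaks of all libraries that shared at least 1 bp were merged into 166736 regions, and each region was given to the protein-coding gene whose span was nearest, within 100 kb. By this rule 137 of the 166736 regions belonged to the 10 genes, of 19970 protein-coding genes in all.

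The data were ATAC-seq peak lists, which mark DNA open to a transposase, from microglia-like cells that had been derived from the human embryonic stem cell line H9. There were 7 isogenic lines with 3 libraries each: TREM2-R47H and TREM2-KO, SORL1-A528T and SORL1-KO, CD33 SNP, INPP5D SNP, and unedited WT. Per the labels' protocols the edited lines were CRISPR/Cas9 clones homozygous for their change, H9 itself was heterozygous at the INPP5D variant, and that line was made homozygous for the A allele. The protocol lists SORL1R744X and no SORL1-KO, and the titles list SORL1-KO and no SORL1R744X. For the SORL1-A528T libraries the genotype label reads TREM2-KO, and the title was followed. Cells of every line, WT included, were grown for 28 days with IL-34 at 100 ng/mL, M-CSF (the product of CSF1) at 25 ng/mL and, at 50 ng/mL, a factor written TGF1 and read here as TGF-beta1, so the ligands of both receptor systems were supplied throughout. CD200 and CX3CL1, at 100 ng/mL each, were added for the final 3 days, and 80000 cells per line were sorted. The labels do not say whether a line's 3 libraries came from separate differentiations. In such bulk libraries a different mix of cells and a change within cells cannot be told apart. The p-values cover only the spread among these libraries, which may be technical.

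CSF1R is a receptor tyrosine kinase of macrophages and microglia, and microglia are lost when it is blocked. It binds CSF1 and IL-34, and in the mouse brain IL-34 comes mainly from neurons. TGF-beta1 binds TGFBR2, which brings in and phosphorylates TGFBR1. TGFBR1 then phosphorylates SMAD2 and SMAD3, which enter the nucleus with SMAD4. SMAD7, itself induced by the pathway, acts on the receptors as a brake, and SKI is a corepressor that holds SMAD complexes in check. In the mouse, loss of TGF-beta signalling takes microglia out of their homeostatic state.

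Peak lists held 39736 to 102891 peaks, and depth went with the replicate number. Replicate 1 libraries had 56.5 to 67.4 M tags, replicate 2 libraries 12.8 to 17.5 M and replicate 3 libraries 32.6 to 52.9 M. Replicate 2 also differed in the fragment length recorded in the lists, 136 to 494 bp against 74 bp in all others. Within replicate 2 it was 494 bp in SORL1-A528T, 262 bp in WT, 186 bp in INPP5D SNP and 136 bp in the other lines. Of 13 microglia and macrophage markers, 9 had a region within 1 kb of a gene end in all 21 libraries, and TMEM119 and SALL1 had none. Of 6 pluripotency markers none had one in all 21, ZFP42 had one in 10 libraries and the 5 others had none in any. Of the markers of other cell types, 1 of 6 neural (MAP2), 1 of 6 mesenchymal (PDGFRB, which adjoins CSF1R) and 2 of 4 T and B cell markers (CD3E and CD3D) had one in all 21, and 0 of 7 erythroid, megakaryocyte and mast cell and 0 of 3 endothelial markers did. In some but not all libraries, 3 of 6 neural, 2 of 6 mesenchymal and 1 of 4 T and B cell markers had one. So did 2 of 7 erythroid, megakaryocyte and mast cell and 1 of 3 endothelial markers. The most frequent of these were COL1A2 (19 libraries), PECAM1 (18), COL1A1 (15) and ITGA2B (15).

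The bases before 4 transcription starts are shown for 2 contrasts: CSF1R has a pair of starts with unlike sequence, and SMAD2 and SMAD3 have alike sequence but unlike calls. Each run is the 250 bases before the start, from RefSeq (GRCh38.p14), on the gene's own strand, 5′ to 3′. Capitals mark, on either strand, GAGGAA (a core of PU.1 sites), TGTGGT (a core of RUNX sites), TGANTCA (AP-1) and GGGCGG (GC box). PU.1 and RUNX1 are transcription factors of myeloid cells, AP-1 is a family of inducible factors and the GC box is bound by SP1.
CSF1R first start (chr5:150113366-150113615, minus strand): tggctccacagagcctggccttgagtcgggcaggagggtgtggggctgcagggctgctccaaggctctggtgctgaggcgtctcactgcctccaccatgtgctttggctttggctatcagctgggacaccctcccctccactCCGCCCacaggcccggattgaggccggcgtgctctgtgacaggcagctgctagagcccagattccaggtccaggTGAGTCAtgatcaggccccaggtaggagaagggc
CSF1R second start (chr5:150086555-150086804, minus strand): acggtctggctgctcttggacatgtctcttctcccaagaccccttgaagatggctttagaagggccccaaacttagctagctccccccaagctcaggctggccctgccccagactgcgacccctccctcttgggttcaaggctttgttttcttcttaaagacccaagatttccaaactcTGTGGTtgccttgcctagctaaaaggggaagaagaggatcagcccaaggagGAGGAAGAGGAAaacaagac
SMAD2 first start (chr18:47930873-47931122, minus strand): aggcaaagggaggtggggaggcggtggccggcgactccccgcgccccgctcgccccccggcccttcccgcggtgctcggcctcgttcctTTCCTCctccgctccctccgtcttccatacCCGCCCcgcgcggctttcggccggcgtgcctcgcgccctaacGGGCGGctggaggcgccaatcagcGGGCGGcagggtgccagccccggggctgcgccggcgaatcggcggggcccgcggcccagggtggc
SMAD3 first start (chr15:67065352-67065601, plus strand): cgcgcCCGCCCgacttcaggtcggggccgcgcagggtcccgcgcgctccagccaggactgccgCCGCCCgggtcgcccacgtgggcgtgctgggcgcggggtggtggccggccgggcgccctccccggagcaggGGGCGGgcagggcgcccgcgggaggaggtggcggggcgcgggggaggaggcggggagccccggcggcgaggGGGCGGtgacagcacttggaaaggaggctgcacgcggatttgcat

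Among the 22131 such windows of protein-coding genes, 23.7% held GAGGAA, 9.36% TGTGGT, 5.35% TGANTCA and 53.7% GGGCGG. The window of the second CSF1R start, known as the one used in myeloid cells, held 2 adjoining copies of GAGGAA and 1 of TGTGGT, with a GC content of 53.2% and 2 CG dinucleotides. That of the first start, known as the one used in trophoblast, held 1 TGANTCA and 1 GGGCGG, with a GC content of 64.4% and 6 CG dinucleotides. The SMAD2 and SMAD3 windows were both rich in GC (78.4% in SMAD2 and 80.8% in SMAD3) with 36 CG dinucleotides each, against medians of 62% and 16 over all windows. SMAD2 had 3 GC boxes and 1 GAGGAA, and SMAD3 had 4 GC boxes and no GAGGAA. GTCTAGAC, the palindromic SMAD site (0.208% of windows), CAGACA (12%) and TATAAA (9%) were also searched and were in none of the 4. A match of letters was taken as a description only. Windows for SKI, CSF1 and IL34 were not used here.

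Regions of both receptor systems were called in every line. Of the 2877 possible calls (137 regions in 21 libraries) 1630 were made, or 56.7%, beside 44.4% over all regions and 48.0% over regions with a gene. All 21 libraries called 27 of the 137 regions (19.7%, beside 15.4% of all regions), and 24 were called in 1 library (17.5%, beside 25.8%). Of the 86 in between, 36 were called in 2 to 10 libraries and 50 in 11 to 20. By place, 14 regions lay within 1 kb of a gene end (6 of them called in all 21), 75 lay elsewhere inside a gene (14 in all 21) and 48 outside (7 in all 21).

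The number of calls went with the replicate number, with which both depth and recorded fragment length moved. The part of each was not tested. Replicate 2 libraries called 36 to 62 of the 137 regions, replicate 1 libraries 79 to 106 and replicate 3 libraries 84 to 101. Over all regions the order was alike: replicate 2 libraries called 23.11% to 39.3%, replicate 1 libraries 40.24% to 56.35% and replicate 3 libraries 45.51% to 59.97%. No replicate 2 library called 60 of the 137 regions, and only 1 of the 137 was called in replicate 2 alone. The matching shares of all regions are not given. The regions seen in 1 library were spread over all lines, with 8 of the 24 in TREM2-R47H, 3 in TREM2-KO, 2 in SORL1-A528T, 3 in SORL1-KO, 2 in CD33 SNP, 5 in INPP5D SNP and 1 in WT. Of all regions seen in 1 library, TREM2-R47H held 12.7%, TREM2-KO 26.03%, SORL1-A528T 11.1%, SORL1-KO 8.53%, CD33 SNP 13.7%, INPP5D SNP 12.03% and WT 15.9%.

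**Figure D1:**
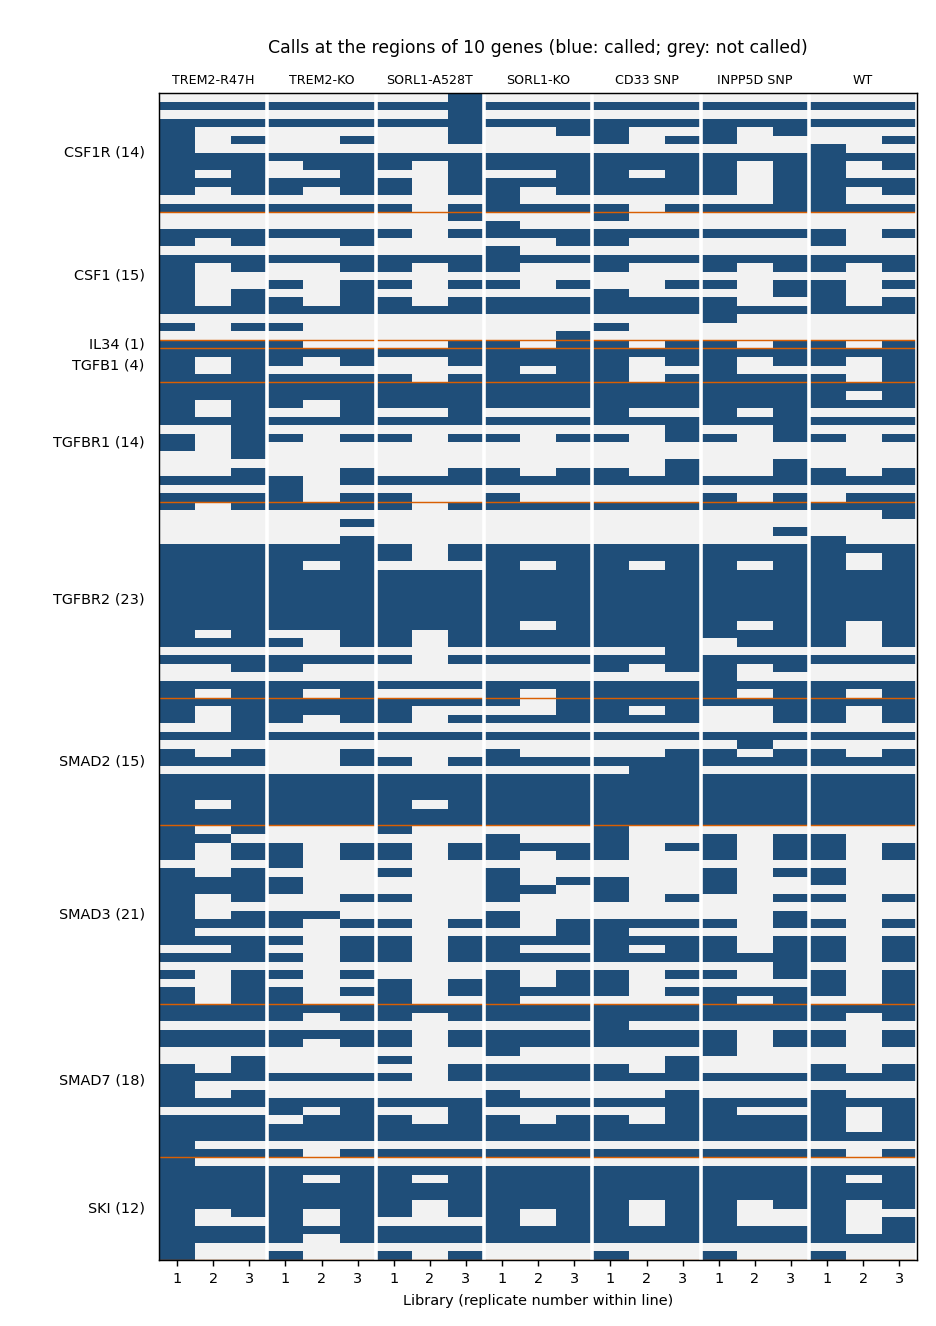
Calls at the 137 regions (rows, by gene and by position within it; number of regions in brackets) in the 21 libraries (columns, by line and replicate number), blue where the library called the region. Rows that are blue throughout are the 27 regions called in all libraries, and the pale columns are those of replicate 2, with 36 to 62 calls each.

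CSF1R itself had 14 regions, all within the gene or at its end, and 164 of 294 possible calls (55.8%; the median gene with at least 5 regions had 48.7%). Every library called 3 of them: region 2 (chr5:150057472-150059932), region 4 (chr5:150063864-150068018) and region 8 (chr5:150081350-150083759). Region 8 lay 2.79 to 5.2 kb inside the gene from the second start, and regions 4 and 2 lay 18.5 to 22.7 kb and 26.6 to 29.1 kb from it. A further region over the 3′ end of CSF1R (chr5:150048010-150054629) was called in all 21 libraries, but also overlapped HMGXB3 and was counted for that gene.

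Neither start of CSF1R was open in all 21 peak lists. Region 9 (chr5:150085268-150087326), over the second start and named after its values were seen, was called in 17 of 21 libraries: 6 of replicate 1, 4 of replicate 2 and 7 of replicate 3. By line it was called in 3 of 3 TREM2-R47H, 2 of 3 TREM2-KO, 2 of 3 SORL1-A528T, 3 of 3 SORL1-KO, 3 of 3 CD33 SNP, 2 of 3 INPP5D SNP and 2 of 3 WT libraries. Region 14 (chr5:150112492-150113854), over the first start, was called in 19 libraries, and the misses were SORL1-A528T 2 and CD33 SNP 2. That region also overlapped the end of PDGFRB, a receptor of mesenchymal cells, so these calls cannot be told apart between the genes. The remaining 9 regions were called in 1 to 19 libraries, and 7 of the 14 in no replicate 2 library.

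The width of an open region, taken as base pairs covered by peaks, also went with the replicate number at region 4 of CSF1R. This region was covered over 3341, 1390 and 3688 bp in TREM2-R47H (replicates 1, 2 and 3), 2402, 1231 and 3502 bp in TREM2-KO, 2908, 725 and 3885 bp in SORL1-A528T, 3157, 1575 and 3338 bp in SORL1-KO, 3538, 2247 and 3361 bp in CD33 SNP, 3342, 2250 and 2986 bp in INPP5D SNP, and 3483, 1041 and 3402 bp in WT. The narrowest value of each line was that of replicate 2, and the lines overlapped throughout. Region 8 spanned 626 to 2309 bp and region 2 spanned 627 to 2088 bp over the 21 libraries. In the limma F test over the 7 lines, on log2 widths minus the library median, the unadjusted p was 0.788, 0.896 and 0.823 for regions 2, 4 and 8, and the adjusted p was 1 for each.

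The ligand genes of CSF1R had no region at a gene end that all 21 libraries called. CSF1 had 15 regions and 122 of 315 possible calls (38.7%). The regions called in all 21 libraries lay outside the gene, 3.67 kb from its lower end (chr1:109905407-109906839) and 2.49 kb from its upper end (chr1:109933481-109935314). A region at each end of CSF1 was called in 11 (chr1:109910148-109911448) and 15 (chr1:109930908-109931691) libraries, and 16 libraries called at least 1 of them. IL34 had 1 region, inside the gene (chr16:70653455-70654319), called in 13 libraries: 3 of 3 in TREM2-R47H, 1 of 3 in TREM2-KO, 1 of 3 in SORL1-A528T, and 2 of 3 in each of SORL1-KO, CD33 SNP, INPP5D SNP and WT. No library called a region within 1 kb of an end of IL34.

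TGFB1, whose product was also in the medium, had 4 regions and 60 of 84 possible calls. The region within 1 kb of its 3′ end (chr19:41325917-41329538) was called in all 21 libraries. The region over its start (chr19:41350880-41354588), which also overlaps the end of B9D2, was called in 18, the 3 others being SORL1-A528T 2, CD33 SNP 2 and WT 2. By line TGFB1 was called 10, 8, 6, 11, 8 and 9 times of 12 in TREM2-R47H, TREM2-KO, SORL1-A528T, SORL1-KO, CD33 SNP and INPP5D SNP, against 8 of 12 in WT. With under 5 regions, TGFB1 and IL34 were not tested.

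TGFBR2, the receptor that binds the ligand, was the gene of the set with the most regions called everywhere. Of its 23 regions 7 were called in all 21 libraries, and 97.7% of protein-coding genes had fewer. Of these 6 lay in a row inside the gene (chr3:30639682-30640651, chr3:30642496-30645378, chr3:30646203-30647405, chr3:30649043-30650366, chr3:30654851-30656100 and chr3:30657725-30659575), and the other at its 3′ end (chr3:30693251-30694071). The starts of TGFBR2 lay under a region of 2052 to 4850 covered bp (chr3:30602743-30607877) that all 21 libraries called, which also overlaps the gene LOC105377015 and was counted for it. Over the 23 regions 315 of 483 possible calls were made (65.2%).

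TGFBR1, the kinase that phosphorylates the SMADs, had 14 regions and 152 of 294 possible calls (51.7%). The region over 7 of its 8 annotated starts (chr9:99104050-99106329) and a region inside the gene (chr9:99136827-99138034) were called in all 21 libraries. The window of the most upstream start lay under no region. A region at its 3′ end (chr9:99154343-99155246) was called in TREM2-R47H 1 and TREM2-R47H 3 only.

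SMAD2 and SMAD3, which are both phosphorylated by TGFBR1, were called unequally. SMAD2 had 15 regions and 223 of 315 possible calls (70.8%), a share above that of 94.2% of genes with at least 5 regions. All 21 libraries called 6 of them: the start (chr18:47929610-47933351, covered over 2544 to 3709 bp), a pair inside the gene (chr18:47853054-47853864 and chr18:47901190-47902380) and 3 outside it (chr18:47777402-47778355, chr18:47953181-47954236 and chr18:47970490-47971520). SMAD3 had 21 regions and 191 of 441 possible calls (43.3%), and none was called in all 21. Its most frequent region was called in 18 libraries. Of 147 possible calls per replicate number SMAD3 received 98 in replicate 1, 17 in replicate 2 and 76 in replicate 3, while SMAD2 received 77, 63 and 83 of 105.

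The start of SMAD3 held the 1 region that was called throughout an edited line and nowhere in WT. The region over it (chr15:67065025-67066216) was called in 8 libraries, and the 4 other annotated starts of SMAD3 lay under no region. It was called in 3 of 3 TREM2-R47H libraries, where it covered 1159, 764 and 963 bp. Among the other edited lines it was called in TREM2-KO 1 (687 bp), SORL1-KO 1 and SORL1-KO 2 (772 and 501 bp), CD33 SNP 1 (943 bp) and INPP5D SNP 1 (807 bp), in no SORL1-A528T library, and in 0 of 3 WT libraries. Of the 8 calls 5 were in replicate 1, 2 in replicate 2 and 1 in replicate 3. It was the only region of the 137 called in 3 of 3 libraries of any edited line and 0 of 3 of WT, and none was called in 0 of 3 against 3 of 3. Over all regions 0.127% were gained in this way in TREM2-R47H, 0.34% were gained in any edited line and 0.876% were lost in any. A count of 1 in 137 regions is too small to be read against these shares. The calls at this region were not tested on their own. With lists cut to 39711 peaks each, the length of the shortest after peaks on chromosomes Y and M were left out, the region was no longer all-or-none.

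SMAD7, the inhibitor induced by the pathway, had 18 regions and 221 of 378 possible calls (58.5%). The region just upstream of its first start (chr18:48951014-48953485) and 2 regions outside the gene (chr18:48896236-48898014 and chr18:48981928-48983973) were called in all 21 libraries. A region just inside the gene (chr18:48948281-48950297), over the second start, was called in 5 libraries: TREM2-R47H 1, TREM2-R47H 3, SORL1-KO 1, CD33 SNP 3 and WT 1. SKI, the corepressor, had 12 regions and 169 of 252 possible calls (67.1%). A region beside its lower end (chr1:2226873-2228274) and 2 inside the gene (chr1:2233723-2235336 and chr1:2245823-2247306) were called in all 21, and a second region at that end (chr1:2228746-2233048) in 18.

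**Figure D2:**
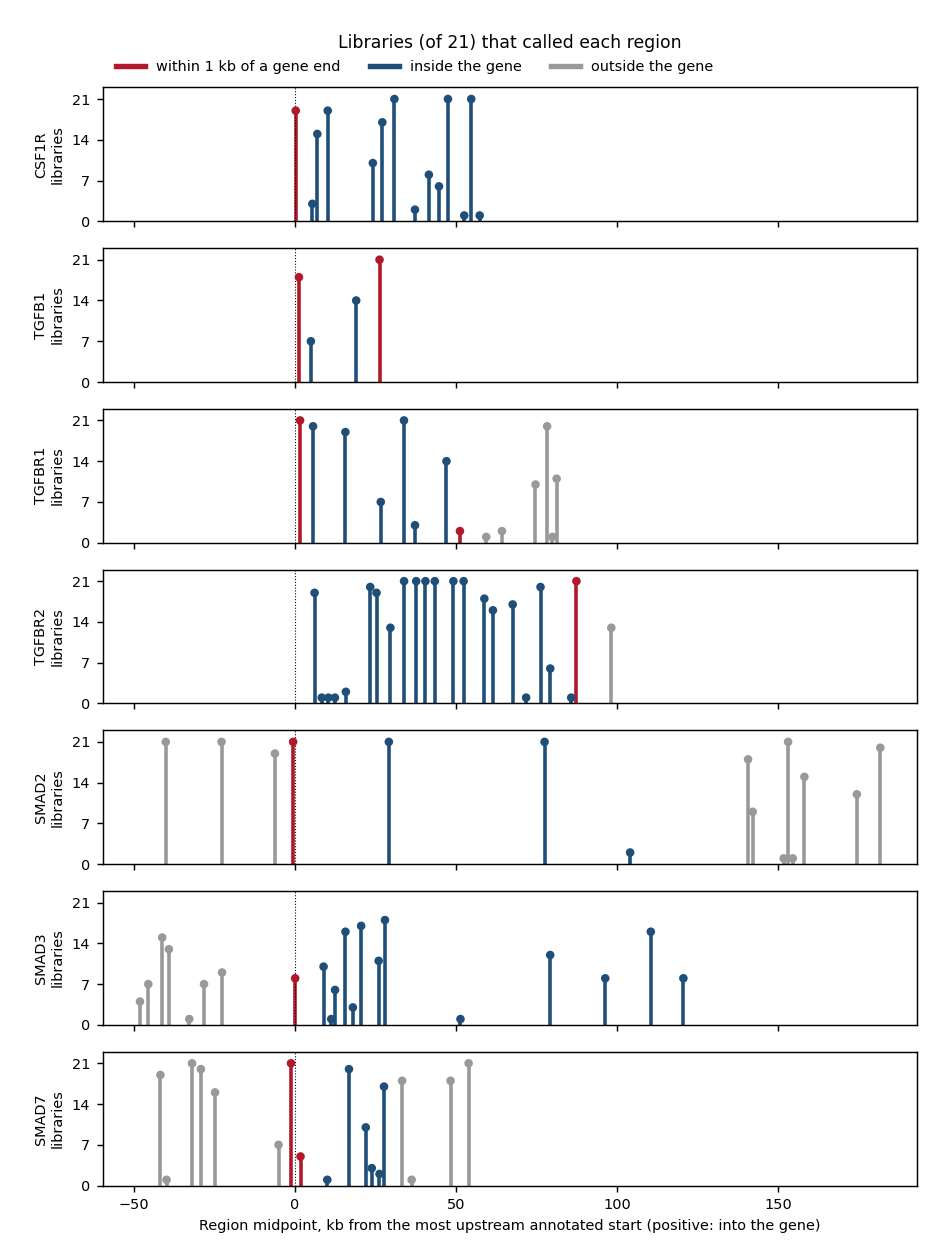
Number of libraries, of 21, that called each region (vertical axis) against the distance of the region's midpoint from the most upstream RefSeq start in kb (horizontal axis, positive into the gene), for the 7 genes with a strand in the reference. Red marks regions within 1 kb of a gene end, blue regions inside the gene and grey regions outside; SMAD3 has no region at 21 and 8 at its start, while TGFBR2 has a run of 6 at 21 inside the gene. Regions counted for a neighbouring gene, such as the one over the TGFBR2 starts, are not drawn.

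In the test across the 7 lines no gene of the set passed for how often its regions were called. To take out differences between libraries in how much was called, each call was set against that library's mean over the regions with an equal number of calls, and these depth-adjusted calls were averaged over the regions of a gene. In limma's moderated F test over the 7 lines with Benjamini-Hochberg adjustment over 8435 genes, 0 of the 8 tested genes and 0 of the 8435 (0%) passed an adjusted p of 0.05. At an unadjusted p under 0.05 it was 0 of 8 and 518 of 8435 (6.14%). SMAD7 had the largest F, 1.77 (unadjusted p = 0.157, adjusted p = 0.884). SMAD3 followed with F = 1.53 (0.219 unadjusted, 0.884 adjusted), TGFBR1 with F = 1.33 (0.29 unadjusted, 0.895 adjusted) and TGFBR2 with F = 1.00 (0.451 unadjusted, 0.917 adjusted). CSF1 (F = 0.662), CSF1R (F = 0.632), SKI (F = 0.567) and SMAD2 (F = 0.344) had adjusted p values of 0.947, 0.949, 0.952 and 0.978.

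Summed over the 137 regions, TREM2-R47H made 268 of 411 possible calls, TREM2-KO 218, SORL1-A528T 199, SORL1-KO 241, CD33 SNP 246, INPP5D SNP 237 and WT 221. Against the number expected from each library's calls over all regions, this was 9.36 ± 8.12 calls per library in TREM2-R47H, −7.18 ± 14.5 in TREM2-KO, 1.75 ± 5.81 in SORL1-A528T, 2.37 ± 4.96 in SORL1-KO, −3.09 ± 5.88 in CD33 SNP, 3.03 ± 5.42 in INPP5D SNP and −6.24 ± 4.47 in WT (SD, n = 3 each). TREM2-R47H stood highest and the spread between its libraries, 1.92 to 18 calls above expectation, was nearly as large as the mean. The values of WT were −10.3 to −1.47, and both TREM2-R47H and SORL1-KO lay above them without overlap, the lowest SORL1-KO library being at −1.17. Of the 24 regions seen in 1 library, 8 were in TREM2-R47H, 1 in WT and 2 to 5 in each other line. Each is among the 137 only through the line that called it, so these sums are not independent of how the regions were chosen.

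Of the 6 contrasts against WT, that of TREM2-R47H held the only 2 genes of the set with an unadjusted p under 0.05, and neither passed the adjustment. SMAD3, with 21 regions, was called 17, 6 and 16 times in TREM2-R47H (replicates 1, 2 and 3), against 13, 0 and 11 times in WT. Its mean depth-adjusted call was 0.16 ± 0.087 in TREM2-R47H and −0.09 ± 0.0433 in WT (SD, n = 3 each), a difference of 0.25 (SE 0.116; limma, unadjusted p = 0.0438, adjusted p = 0.573). SMAD7, with 18 regions, was called 14, 10 and 13 times in TREM2-R47H, against 13, 4 and 12 times in WT. Its mean depth-adjusted call was 0.0829 ± 0.04 in TREM2-R47H and −0.0558 ± 0.108 in WT, a difference of 0.139 (SE 0.0628; limma, unadjusted p = 0.039, adjusted p = 0.561). All 3 TREM2-R47H libraries lay above all 3 WT libraries for both genes. How many of all 8435 genes separate in this way was not counted, so this is not read as particular to SMAD3 and SMAD7. Region 10 of SMAD3 and regions 10 and 17 of SMAD7 were called in TREM2-R47H 1 alone. They entered the gene means only through that library, and no region of either gene was called in WT alone. Part of each difference thus comes from how the regions were chosen. Over all genes 8.52% had an unadjusted p under 0.05 in TREM2-R47H against WT, and 4.98% had one and were higher in TREM2-R47H.

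At SMAD3 the replicate 1 library was the highest in each of the 7 lines, and the SD within a line reached 0.261 in TREM2-KO and 0.188 in CD33 SNP. With replicate number as a block, the limma F test over the 7 lines gave SMAD3 an unadjusted p of 0.0107 and an adjusted p of 0.287. Under that block 12.6% of all genes had an unadjusted p under 0.05, beside 6.14% without it. Without the replicate 2 libraries of all lines the TREM2-R47H difference was 0.262 at SMAD3 (limma, adjusted p = 0.732) and 0.0781 at SMAD7 (limma, adjusted p = 0.807). The SMAD7 difference rested on WT replicate 2, the lowest of the WT libraries, and was 0.0707 without it (limma, adjusted p = 0.86). That library had a recorded fragment length of 262 bp and 46991 peaks, against 136 bp and 55094 peaks in TREM2-R47H 2. Whether this bears on the differences was not tested.

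The contrasts share the WT libraries and are given side by side. Differences were positive for 7 of 8 genes in TREM2-R47H (median 0.128, beside 0.00752 over all 8435 genes), 4 of 8 in TREM2-KO (median −0.00185, beside −0.0125), 6 of 8 in SORL1-A528T (0.0821, beside −0.000267), 7 of 8 in SORL1-KO (0.0559, beside 0.00557), 7 of 8 in CD33 SNP (0.0184, beside 0.00672) and 7 of 8 in INPP5D SNP (0.0498, beside 0.00242). The share of all 8435 genes with a positive difference was, in the same order, 54.4%, 42.8%, 49.8%, 52.5%, 53.9% and 51.5%. Of the regions of the set called in 1 library alone, 8 were in TREM2-R47H and 1 in WT. Such regions entered the gene means only through that library, so these counts and medians are not independent of how the regions were chosen. SMAD2 had a difference below 0 in 5 of the 6 lines, the lowest being −0.0492 in TREM2-KO. The smallest adjusted p of any gene of the set was 0.561 in TREM2-R47H and 0.932 or more in the others. In all 1 gene of 8435 (0.0119%), none of the set, passed in INPP5D SNP and 0 in the other 5 lines, where 209 to 719 genes had an unadjusted p under 0.05. The CSF1R difference was 0.0687 in TREM2-R47H, −0.0524 in TREM2-KO, 0.0805 in SORL1-A528T, 0.0151 in SORL1-KO, 0.00766 in CD33 SNP and 0.0505 in INPP5D SNP, each with an SE of 0.0817. Of its 14 regions CSF1R was called at 11, 6 and 9 in TREM2-R47H, 6, 6 and 9 in TREM2-KO, 7, 3 and 12 in SORL1-A528T, 8, 6 and 9 in SORL1-KO, 10, 6 and 9 in CD33 SNP, 10, 4 and 10 in INPP5D SNP, and 10, 5 and 8 in WT (replicates 1, 2 and 3). By these counts SORL1-A528T 3 was the highest and SORL1-A528T 2, the library with the shortest list, the lowest of the 21 libraries. By depth-adjusted call the highest was SORL1-A528T 3 (0.282) and the lowest INPP5D SNP 2 (−0.111). Every line overlapped WT by both measures.

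**Figure D3:**
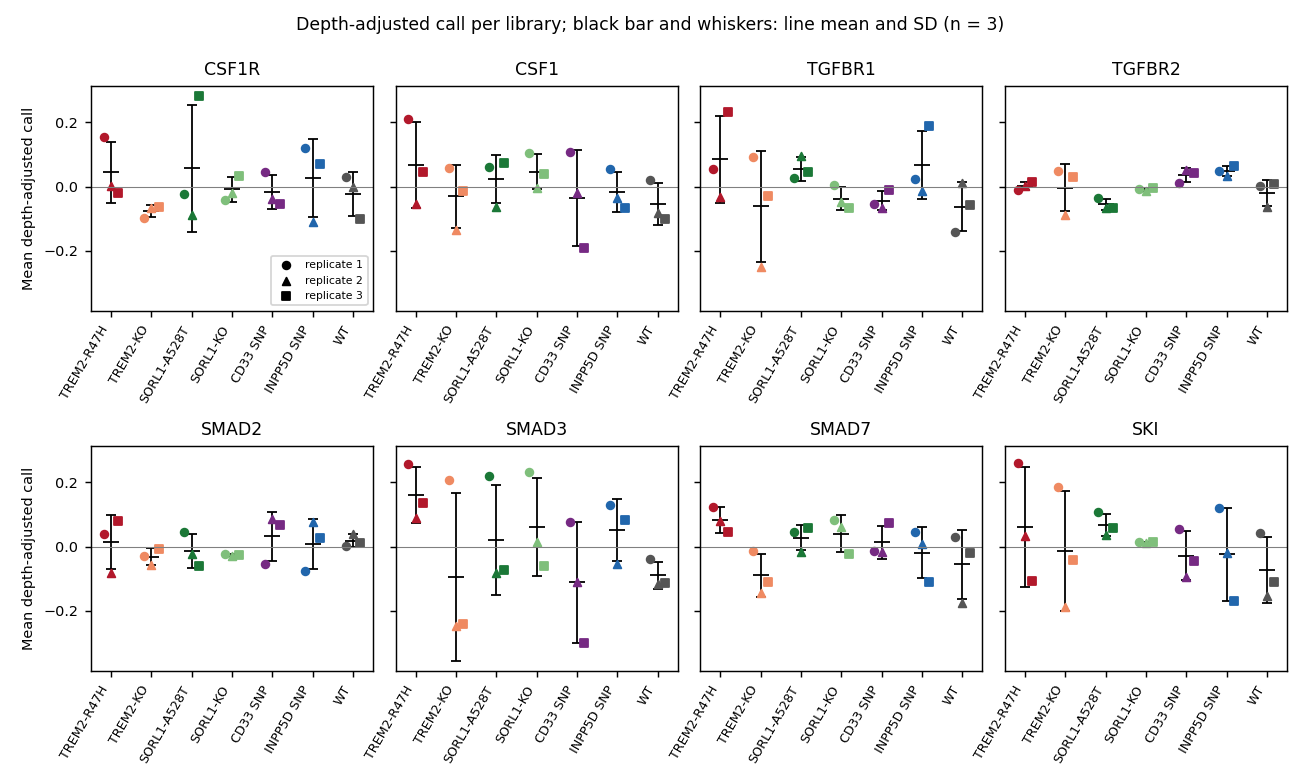
Mean depth-adjusted call (vertical axis, change in the share of a gene's regions called, 0 being what the library's calls over all regions give) for the 8 genes with at least 5 regions, by line with WT at the right; markers are libraries by replicate number, and black bars and whiskers are the line mean and SD (n = 3). The means of TREM2-R47H and WT are 0.16 and −0.09 at SMAD3 and 0.0829 and −0.0558 at SMAD7. At SMAD3 the replicate 1 marker is the highest of each line.

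None of the 27 regions called in all 21 libraries passed the test of width over the 7 lines. In the F test over 25599 such regions 1 passed (0.00391%), none of the set, and at an unadjusted p under 0.05 it was 0 of 27 and 4.08% of all. In TREM2-R47H against WT 2 of 25599 passed (0.00781%), none of the set, and 0 passed in the other lines. SKI region 4 (chr1:2233723-2235336) was covered over 1531, 1170 and 1306 bp in TREM2-R47H, against 1026, 631 and 881 bp in WT. The log2 difference was 0.59 (SE 0.195; limma, unadjusted p = 0.00685, adjusted p = 0.734). SKI region 4 was 1 of 27 regions with an unadjusted p under 0.05 in that contrast, beside 5.04% of all.

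A few other regions had an unadjusted p under 0.05 in 1 line. The last of the 6 consecutive TGFBR2 regions covered 1013 ± 315 bp in TREM2-KO and 1327 ± 225 bp in WT (SD, n = 3 each; log2 difference −0.40, limma unadjusted p = 0.0298, adjusted p = 1), 1 of 27 beside 2.43% of all. In SORL1-KO against WT it was 2 of 27 beside 3.29%. The second of those TGFBR2 regions covered 2410 ± 358 bp in SORL1-KO and 1787 ± 414 bp in WT (log2 difference 0.45, limma unadjusted p = 0.0411, adjusted p = 1). The lowest SMAD7 region covered 1495 ± 207 bp in SORL1-KO and 1116 ± 364 bp in WT (log2 difference 0.46, limma unadjusted p = 0.016, adjusted p = 1). The CSF1 region below its lower end covered 628 ± 128 bp in CD33 SNP and 929 ± 236 bp in WT (log2 difference −0.64, limma unadjusted p = 0.0107, adjusted p = 1 to 3 digits), 1 of 27 beside 2.23%. None passed the adjustment over all regions.

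**Figure D4:**
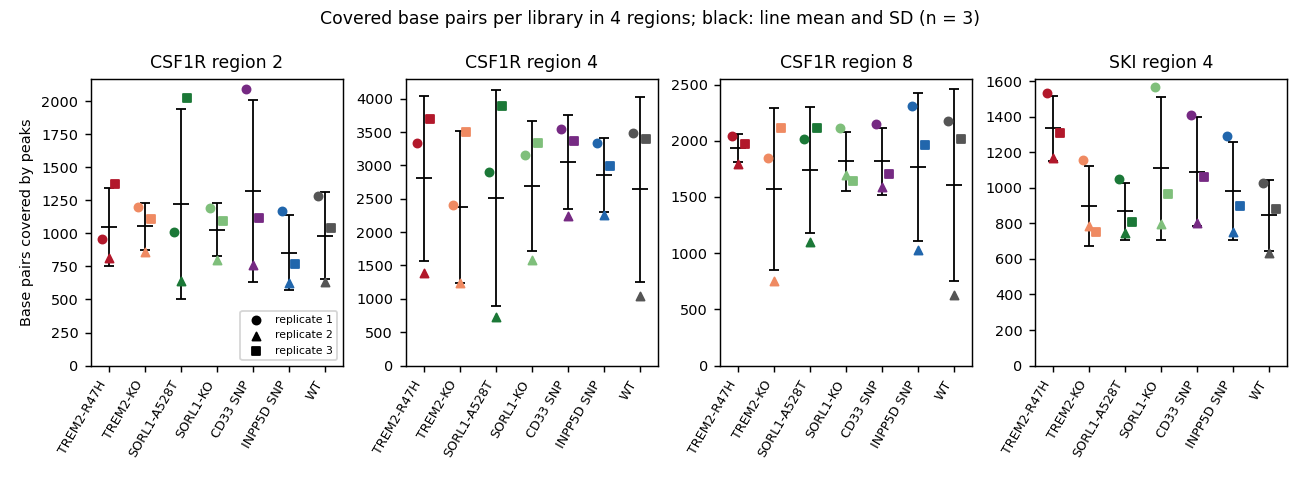
Base pairs covered by peaks (vertical axis, from 0) in the 3 CSF1R regions called in all 21 libraries and in SKI region 4, by line with WT at the right; markers are libraries by replicate number, black bars and whiskers the line mean and SD (n = 3). At CSF1R region 4 the replicate 2 libraries are the lowest of every line (725 to 2250 bp). At SKI region 4 the TREM2-R47H libraries cover 1170 to 1531 bp and those of WT 631 to 1026 bp.

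The wider pathways were described from lists of other genes. Of 19 genes on the CSF1R side (coreceptors, adaptors, kinases, phosphatases and the transcription factors of the myeloid lineage) 15 could be tested, 0 passed and 2 had an unadjusted p under 0.05, beside 6.14% of all genes. These were CEBPA, a myeloid transcription factor (F = 4.07, limma unadjusted p = 0.00792, adjusted p = 0.629), and RUNX1 (F = 3.19, unadjusted p = 0.0231, adjusted p = 0.792). Of 44 genes on the TGF-beta side (ligands, latency proteins, integrins, receptors, SMADs, ubiquitin ligases and targets) 38 were tested, 0 passed and 2 had an unadjusted p under 0.05. These were FURIN, the protease that cleaves the TGF-beta precursor (F = 3.75, unadjusted p = 0.0116, adjusted p = 0.69), and ZFYVE9, which presents SMADs to the receptor (F = 2.65, unadjusted p = 0.0465, adjusted p = 0.808). A region at a gene end was called in all 21 libraries for 10 of the 19 and 28 of the 44 genes, beside 44.4% of all 19970 protein-coding genes.

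Over the 21 libraries the depth-adjusted calls most like those of CSF1R were at TPM4 (r = 0.81), SLC11A1 (r = 0.798), SNN (r = 0.779), CD33 (r = 0.777) and MCL1 (r = 0.763), the 5 highest of the genes tested. Within the set r with CSF1R was 0.511 for CSF1, 0.345 for SKI, 0.291 for SMAD7, 0.257 for SMAD3, 0.172 for TGFBR1, −0.15 for TGFBR2 and −0.3 for SMAD2. These are descriptions over n = 21 libraries that share lines and depths.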

How the data were processed

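Per the submitters' processing notes the tools included cutadapt 1.18, STAR 2.7, HOMER 4.10 and DESeq2, with no role stated for DESeq2. HOMER, per the file headers, called peaks library by library in histone style, with no input or control, and a size setting of 500 bp. The score column of the deposited lists is 1 throughout, and positions, widths and, in alternatives, the order of peaks in the file were used. The genome build and any shift of reads for the transposase cut are not stated in these sources. The positions were read as GRCh38: 21.9% of 39940 RefSeq gene ends lay under regions called in all libraries, and 2.75% and 2.86% with the ends shifted by 10 kb either way.

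A region counted as called in a library with at least 1 peak there. A region over several gene spans went to the one with the largest overlap, then the shorter span. Of 1604926 peaks, 0.0821% lay on chromosomes Y and M and were not used. Calls per gene (at least 5 regions) and log2 covered widths were tested with limma 3.58.1 in R 4.3.3 over all 21 libraries, with Benjamini-Hochberg adjustment over all features. Tests were tried on simulated data. Intervals for calls are not given, since the lists hold no counts. The members and lists were chosen with earlier results of these data known. Described are all 10 genes, with test values over 7 lines and, against WT, for an unadjusted p under 0.05. Regions with coordinates are those at a gene end, called in all libraries or all-or-none, plus the IL34 region, named after its values were seen. Alternatives are given in the closing section.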

Additional observations from a re-analysis of the deposited data

Results flagged for a closer look

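The mean depth-adjusted call of CSF1R lay above the WT mean in 3 of 3 TREM2-R47H libraries and below it in 3 of 3 TREM2-KO libraries. The difference from WT was 0.0687 in TREM2-R47H (SE 0.0817; limma, unadjusted p = 0.41, adjusted p = 0.822) and −0.0524 in TREM2-KO (SE 0.0817; unadjusted p = 0.528, adjusted p = 0.999). At TGFBR2 3 of 3 SORL1-A528T libraries lay below the WT mean and 3 of 3 SORL1-KO libraries above it. The difference from WT was −0.0367 in SORL1-A528T (SE 0.0489; limma, unadjusted p = 0.462, adjusted p = 0.979) and 0.0104 in SORL1-KO (SE 0.0489; unadjusted p = 0.834, adjusted p = 0.986). None of the 4 passed, each line overlapped the WT libraries at CSF1R, both pairs share those libraries, and the difference between the lines of a pair was not tested. Both patterns were found by looking through the 10 genes in the TREM2 and SORL1 pairs of lines. All TREM2-R47H libraries also lay above the WT mean at TGFBR1, TGFBR2, SMAD3 and SMAD7. How many of all genes show such opposite patterns was not counted.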

How the results depend on the processing

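Under the alternative settings, most of which left out libraries, no gene or region of the set passed the adjusted threshold. This rests on 126 counts, since each setting gave 1 count for the test over 7 lines and 1 for the contrasts. The limma F tests of the 8 genes stayed above the threshold in all 272 fits, 34 settings for each gene (smallest adjusted p 0.278, at SMAD3). The TREM2-R47H minus WT difference was 0.211 to 0.287 at SMAD3 and 0.0707 (without WT replicate 2) to 0.277 at SMAD7 over 34 alternatives each, with adjusted p of 0.189 to 1 and 0.314 to 1. All-or-none hits, counted once for each line and region, went from 1 to 2 with cover of at least 50% and 2 with equal list lengths. With 1 replicate number left out there were 4 to 21 hits, some of them the same region in several lines. The rule was then weaker, at 2 of 2 libraries against 0 of 2. The share over all regions is not given for these settings, so the counts are not read as a result about the set. The SMAD3 start was among the hits in each of these settings except equal list lengths. That setting gave a SMAD7 region in TREM2-R47H and a SMAD2 region in INPP5D SNP. Calls at the 137 regions were 1006 with equal list lengths (1630 as deposited). Over all genes, 1 passed over 7 lines with at least 10 regions per gene and 1 with equal list lengths, and 1 in TREM2-R47H with equal list lengths. In INPP5D SNP 0 passed with cover of at least 50%, a minimum of 3 or 10 regions, genes within 10 kb, equal list lengths or no depth adjustment, and 0 to 1 with a library left out. Of all region widths, leaving out libraries gave 0 to 12 over 7 lines, 0 to 7 in SORL1-A528T (most without its replicate 1) and 0 to 2 in TREM2-R47H. By file order it was 130 over 7 lines, 81 in TREM2-R47H, 18 in SORL1-A528T and 2 each in CD33 SNP, INPP5D SNP and SORL1-KO. The longest single peak gave 1 in TREM2-R47H and 1 in SORL1-A528T, and quantile normalization 1 in TREM2-R47H. With the replicate block 7 widths passed over 7 lines and 1 in SORL1-A528T, and no gene over 7 lines. Its F at SMAD3 was 3.92 (limma, unadjusted p = 0.0107, adjusted p = 0.287), which made 1 of 8 genes under an unadjusted 0.05, beside 1059 of 8435, and the SMAD3 difference had an adjusted p of 0.189. Correlations of the deviations of same-numbered libraries had positive medians for gene calls (0.287, 0.147 and 0.129 for numbers 1, 2 and 3) and widths (0.301, 0.373 and 0.146), but not every pair was over 0.1 (lowest 0.108, −0.0323 and −0.0656 for gene calls, 0.187, 0.252 and 0.0753 for widths), so same-numbered libraries were not treated as pairs. The cause of these shifts was not tested. Replicate 2 libraries called the fewest regions, and their depth and fragment length cannot be told apart. Lists without counts give no interval for a call.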
